A study of Mus musculus with 6 samples.

Results

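The interferon-inducible GTPases were followed in resting splenic CD8+ T cells (CD8-TC) without Runx3, a RUNX family transcription factor of cytotoxic lymphocytes. The genes were Iigp1, Irgm1, Irgm2, Igtp, Tgtp1, Gbp2, Gbp3, Gbp6 and Gbp7, and every probe set whose gene symbol field in GEO's platform annotation held one of these names was taken, including those with several symbols. All 9 genes were found, on 9 of the 23410 probe sets with a gene symbol. A total of 4 of these probe sets carried 1 symbol and 5 carried several, so that Irgm2 shared its probe set with Igtp, Tgtp1 with Tgtp2, Gbp2 with Gbp2b, and Gbp6 with 5 other Gbp genes. The signal of such a probe set cannot be assigned to 1 of its genes.

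Affymetrix mouse Gene 1.0 ST arrays had been hybridised with RNA of 3 Runx3-/- mice and 3 WT mice, all male, of the outbred ICR stock and 6 weeks old, with 1 array for each mouse. The cells were freshly isolated and not cultured, and the labels name no tissue to which the loss of Runx3 was confined. CD8+ cells of both genotypes were captured on anti-CD8 beads, and per the study's methods and a label the Runx3-/- cells alone were then sorted to take away dendritic cells that carry CD11c and CD8, although a further label gives sorting for every sample. With the sort in Runx3-/- cells only, its part and that of genotype cannot be told apart.

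Interferons bind surface receptors coupled to JAK kinases and STAT factors, which switch on genes through promoter elements such as the gamma-activated site (GAS) and the interferon-stimulated response element (ISRE). Among the most strongly induced proteins in mice are the immunity-related GTPases (IRG) and the guanylate-binding proteins (GBP), which gather on the vacuoles that hold intracellular parasites and bacteria and help to break them. The Irgm proteins keep the other IRG proteins inactive on the cell's own membranes, whereas Iigp1 and Tgtp1 are effectors that load onto the vacuole. In mouse T cells the family is known as part of the interferon response; the name Tgtp stands for a T cell-specific GTPase.

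All signals are log2 values, every difference is the Runx3-/- mean less the WT mean, and tests are two-sided from limma with Benjamini-Hochberg adjustment over 12049 tested probe sets at a threshold of 0.05. The arrays were alike in scale, with medians between 3.45 and 3.53. Across tested probe sets, correlations were at least 0.986 within a genotype and at most 0.975 between genotypes. The T cell gene Cd3e was high in both genotypes, at 9.39 ± 0.22 in Runx3-/- cells and 9.44 ± 0.19 in WT cells (SD, n = 3 each). Cd8a, for whose protein the cells were captured, was at 11.06 ± 0.13 in Runx3-/- cells and 11.10 ± 0.04 in WT cells. The Runx3 probe set read 7.06, 7.17 and 7.64 in Runx3-/- arrays and 7.09, 7.30 and 6.99 in WT arrays, a difference of 0.16 ± 0.16 (SE, limma adjusted p = 0.559); no source used here gives the exons it reads, so that it is no check of the genotype. Cd4, which was higher in every Runx3-/- array (6.80, 6.91 and 6.67 in Runx3-/-, against 4.14, 4.13 and 4.42 in WT), separated the genotypes.

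Several interferon-inducible GTPases were higher in Runx3-/- CD8-TC, and none was called lower. Of the 9 probe sets, 5 rose, 0 fell and 4 did not pass the test, where 10.1% of all tested probe sets were called in either direction and 4.82% were called higher. The risers were those of Iigp1, Irgm2 with Igtp, the pair of probe sets for Tgtp1 with Tgtp2, and the one for Gbp6 with its neighbours. All 9 differences were above 0, as were 48.9% of those of all tested probe sets, and their median was 0.55 on the log2 scale, against -0.0058 over all tested probe sets. In 7 of the 9 the lowest Runx3-/- array lay above the highest WT array, which 16.6% of all tested probe sets did. All 9 reached the array median in a WT array as well, so that none was tested on the strength of its Runx3-/- signal alone. In such bulk RNA, fewer cells of a type and less RNA per cell cannot be told apart.

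**Figure D1:**
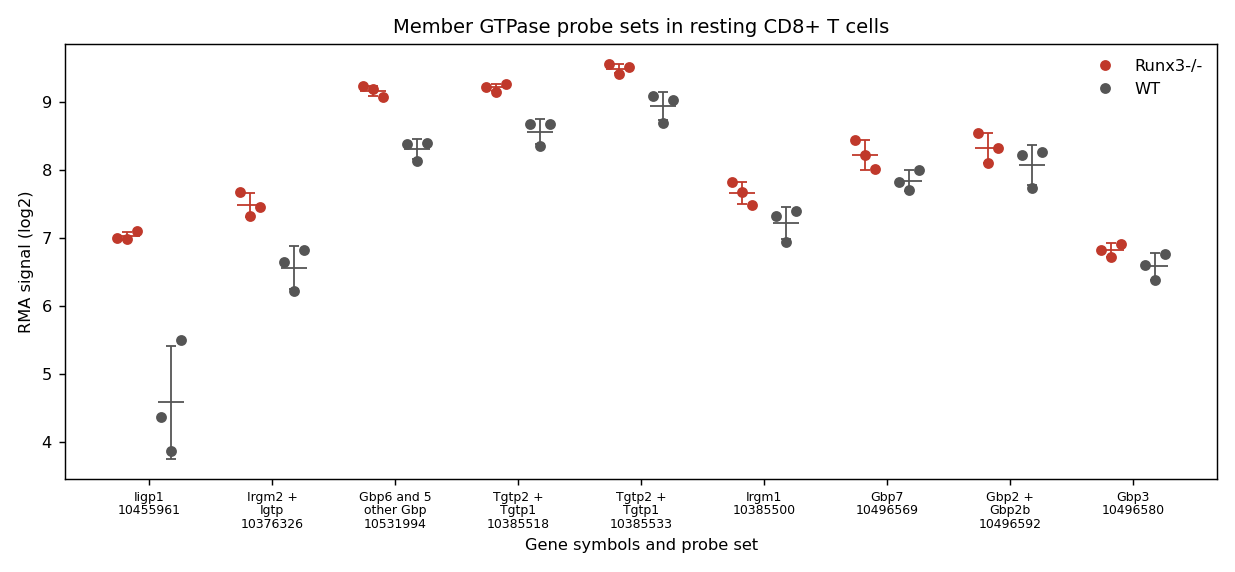
RMA signal (log2, y axis) of the 9 member probe sets (x axis, gene symbols and probe set number) in 3 Runx3-/- arrays (red, left of each pair) and 3 WT arrays (grey), with a bar for the mean and whiskers for the SD. Iigp1 stood at 6.99 to 7.10 in Runx3-/- arrays and at 3.87 to 5.50 in WT arrays, and only the probe sets of Gbp2 and Gbp3 overlapped between genotypes.

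The regulatory Irgm proteins are described first. Irgm2 and Igtp, which encodes Irgm3, share probe set 10376326, and it read 7.67, 7.32 and 7.46 in Runx3-/- arrays, against 6.64, 6.21 and 6.83 in WT arrays. The genotypes did not overlap. The difference was 0.92 ± 0.17 (SE, n = 3 per genotype, 95% interval 0.53 to 1.31), a 1.89-fold rise (limma adjusted p = 0.0168). Irgm1, whose protein governs the same effectors and also macrophage autophagy, read 7.82, 7.67 and 7.49 on probe set 10385500 in Runx3-/- arrays and 7.32, 6.95 and 7.39 in WT arrays. Here too every Runx3-/- array was above every WT array, with Runx3-/- array 3 and WT array 3 nearest to each other, and the difference of 0.44 ± 0.14 did not pass the test (limma adjusted p = 0.096, unadjusted p = 0.0159).

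Tgtp1 and Tgtp2 encode near-identical copies of the effector Irgb6 and lie close together on chromosome 11. Probe set 10385518 read 9.22, 9.16 and 9.27 in Runx3-/- arrays and 8.67, 8.35 and 8.67 in WT arrays, and probe set 10385533 read 9.55, 9.42 and 9.51 in Runx3-/- arrays and 9.09, 8.70 and 9.04 in WT arrays. In both, the Runx3-/- arrays lay close together and apart from all WT arrays. The first differed by 0.65 ± 0.11 (1.57-fold, limma adjusted p = 0.0125) and the second by 0.55 ± 0.12 (1.47-fold, limma adjusted p = 0.0299). Both carry the same pair of symbols, so that they are no independent measurements of 1 gene, and the second was called less firmly: its adjusted p was 0.0546 without WT replicate 2, and between 0.0701 and 0.0895 without any 1 of the Runx3-/- replicates.

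Promoter sequences are shown for these regulators and effectors because the control elements of this family are short and can be read by eye. RefSeq windows (GRCm38.p6) from 250 bases before to 50 bases after the annotated start were at hand for 7 of the 9 members, Irgm1, Irgm2, Igtp, Tgtp1, Gbp2, Gbp3 and Gbp7, and for Tgtp2. Searched on both strands were the GAS (TTCNNNGAA), the core shared by ISREs (GAAANNGAA) and RUNX motifs (TGTGGT or TGTGGC, and likewise TGCGGT or TGCGGC). The 120 bases before the start follow, 5′ to 3′ on the strand of the gene, with GAS and ISRE core matches in capitals; a core on the other strand reads TTCNNTTTC.
Igtp (chr11:58199436-58199555, plus strand): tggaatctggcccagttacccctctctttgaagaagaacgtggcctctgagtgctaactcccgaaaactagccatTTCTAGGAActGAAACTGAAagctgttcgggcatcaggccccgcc
Irgm2 (chr11:58214857-58214976, plus strand): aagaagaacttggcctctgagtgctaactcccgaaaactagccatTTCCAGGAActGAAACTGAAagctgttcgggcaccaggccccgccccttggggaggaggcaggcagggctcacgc
Tgtp1 (chr11:48992247-48992366, minus strand): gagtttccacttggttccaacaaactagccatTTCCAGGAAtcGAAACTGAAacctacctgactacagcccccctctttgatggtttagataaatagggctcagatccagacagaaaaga
Tgtp2 (chr11:49064213-49064332, minus strand): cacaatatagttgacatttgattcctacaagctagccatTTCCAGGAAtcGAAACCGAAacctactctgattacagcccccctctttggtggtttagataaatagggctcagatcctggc
Irgm1 (chr11:48871421-48871540, minus strand): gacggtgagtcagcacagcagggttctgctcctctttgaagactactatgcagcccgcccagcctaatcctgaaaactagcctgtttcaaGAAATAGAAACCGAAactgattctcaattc
Gbp7 (chr3:142530216-142530335, plus strand): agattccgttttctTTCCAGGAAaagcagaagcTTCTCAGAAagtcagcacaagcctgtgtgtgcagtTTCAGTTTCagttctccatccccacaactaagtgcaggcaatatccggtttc
Gbp2 (chr3:142620543-142620662, plus strand): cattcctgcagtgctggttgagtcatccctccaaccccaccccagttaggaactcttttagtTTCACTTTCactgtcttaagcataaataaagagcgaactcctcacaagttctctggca

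The ISRE core was found in all 7 member promoters used, where 9.76% of 27025 genes with such a window held it. Iigp1 and Gbp6 are not among the 7. A GAS was found in 4 of the 7, Gbp7, Igtp, Irgm2 and Tgtp1, where 9.55% of all genes held it. Both were found in the same 4 members and in 1.24% of all genes. In Igtp, Irgm2 and Tgtp1 the elements stood in 1 arrangement, a GAS followed after 2 bases by an ISRE core, so that their first bases were 11 apart; the GAS began 45 bases before the start in Igtp, 75 in Irgm2 and 88 in Tgtp1. Tgtp2 had the same arrangement, with its GAS 81 bases before the start. This spacing was noticed in the sequences and then searched for, and 8 genes in all (0.0296%) held it, among them Gm12185, a further IRG gene whose signal differed by 0.0083 ± 0.15, and Adar, an RNA-editing enzyme, with 0.33 ± 0.13 (limma adjusted p = 0.14). Some of the promoters that share it resemble each other: those of Irgm2 and Igtp were identical at 72.8% of aligned positions and those of Tgtp1 and Tgtp2 at 66.8%. The promoters of Irgm2 and of Irgm1, which lacks the arrangement, were identical at 47.0%. Identity to the promoter of Adar was not taken.

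No GAS match was in the window of Irgm1, which held overlapping ISRE cores, beginning 30 and 24 bases before the start, that run together as 1 block of capitals. Gbp7 held a GAS at 106 and at 87 bases and an ISRE core at 52 bases before the start. Gbp2 held an ISRE core at 58 bases, and Gbp3, which is not printed, held overlapping cores at 44 and 38 bases. A RUNX motif was found in the windows of Gbp2 and Gbp3 only, 2 of the 7, where 48.7% of all genes held one. Gbp3 had a further window at another annotated start, and its RUNX motif lay in that window, not in the one with the ISRE cores. No GAS match overlapped an ISRE core in these windows. The probe sets of the members with the joined elements, Irgm2 with Igtp and Tgtp1 with Tgtp2, passed the test. Those of Irgm1, Gbp7, Gbp2 and Gbp3 did not. No window was searched for Iigp1 and Gbp6, whose probe sets also passed. Gm12185 and Adar hold the same arrangement and did not pass (limma adjusted p = 0.978 and 0.14). Matches are letters in a window, and binding data were not used in this report. The study mapped Runx3 binding in resting CD8-TC by ChIP-seq, and most of the bound regions lay well away from gene starts. Windows of this length therefore cannot show whether Runx3 binds near a member. A link between the arrangement and the signal was not tested.

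Iigp1 encodes Irga6, an effector IRG protein that coats the vacuoles of parasites in mouse cells. It showed the largest difference of the 9 probe sets. Probe set 10455961 read 7.00, 6.99 and 7.10 in Runx3-/- arrays and 4.37, 3.87 and 5.50 in WT arrays. The Runx3-/- arrays lay close together (SD 0.059), while the WT arrays spread widely (SD 0.84), WT array 3 above the others. The difference was 2.45 ± 0.36 (SE, 95% interval 1.62 to 3.29), a 5.47-fold rise (limma adjusted p = 0.00673), and it ran between 2.10 and 2.91 when each array was left out in turn, always past the threshold. The interval lay above that of every other member, of which the highest upper bound was 1.31; the gap between members was not tested.

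The neighbours of Iigp1 rose as well. Gm4951 and Gm4841, IRG genes also called Ifgga2 and Ifgga3, lie beside it on chromosome 18 in the RefSeq gene table. Gm4951 read 5.78, 5.67 and 5.97 in Runx3-/- arrays and 3.48, 3.55 and 3.85 in WT arrays, without overlap, and rose by 2.18 ± 0.13 (limma adjusted p = 0.000143). Gm4841 read 4.02, 3.99 and 4.41 in Runx3-/- arrays and 3.37, 3.49 and 3.51 in WT arrays and rose by 0.69 ± 0.13 (limma adjusted p = 0.0175). In WT cells both signals lay near the array median, where a fold may be understated. All 3 IRG probe sets tested on chromosome 18 thus rose.

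GBP proteins are larger GTPases that coat vacuoles and freed bacteria and help to trigger inflammasomes. The mouse genes lie in clusters on chromosomes 3 and 5. On chromosome 5, the probe set 10531994 that carries Gbp6 with Gbp4, Gbp8, Gbp9, Gbp10 and Gbp11 read 9.23, 9.19 and 9.08 in Runx3-/- arrays and 8.38, 8.13 and 8.40 in WT arrays. The genotypes were far apart relative to their spread. The difference was 0.86 ± 0.10 (95% interval 0.62 to 1.10, 1.82-fold, limma adjusted p = 0.00287), the lowest adjusted p among the 9, and it stayed past the threshold, between 0.78 and 0.91, whichever array was left out. The probe sets that carry 1 symbol of the same cluster ran the same way. Gbp4 rose by 0.73 ± 0.10, Gbp9 by 0.53 ± 0.11 and Gbp11 by 1.10 ± 0.22 (limma adjusted p = 0.00435, 0.0259 and 0.0222), and Gbp8 differed by 0.40 ± 0.11 and did not pass (adjusted p = 0.0532). RefSeq lists Gbp11 as a transcribed pseudogene. Whether these probe sets share probes with 10531994 is not given in the files.

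None of the chromosome 3 members passed. Gbp7, whose protein is linked to the antimicrobial oxidase of phagocytes in mice, read 8.45, 8.22 and 8.009 in Runx3-/- arrays and 7.82, 7.71 and 8.005 in WT arrays on probe set 10496569. The genotypes did not overlap, but the lowest Runx3-/- and the highest WT array were almost equal. The difference was 0.38 ± 0.13 (95% interval 0.067 to 0.69, limma adjusted p = 0.117). Gbp2, needed for control of Toxoplasma in mice, read with Gbp2b 8.54, 8.10 and 8.33 in Runx3-/- arrays and 8.22, 7.74 and 8.26 in WT arrays on probe set 10496592. These overlapped, and the difference was 0.25 ± 0.17 (95% interval -0.15 to 0.65, limma adjusted p = 0.384). Gbp3 read 6.82, 6.72 and 6.92 in Runx3-/- arrays and 6.60, 6.38 and 6.77 in WT arrays on probe set 10496580, also with overlap. Its difference was 0.24 ± 0.12 (95% interval -0.042 to 0.51, limma adjusted p = 0.246). The intervals of Gbp7 and Gbp2 also hold the 0.55 of the weaker Tgtp probe set, whereas that of Gbp3 ends below it.

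The 2 GBP clusters were set side by side after their values had been seen. On chromosome 5, 4 of 5 probe sets rose, with differences from 0.40 to 1.10, and on chromosome 3, 0 of 5 passed, with differences from -0.28 for Gbp2b alone to 0.38. The mean signal of the chromosome 5 probe sets minus that of the chromosome 3 probe sets was 1.16, 1.31 and 1.26 in Runx3-/- arrays and 0.76, 0.84 and 0.42 in WT arrays. These values describe the clusters, and no test was made of a contrast chosen in this way.

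**Figure D2:**
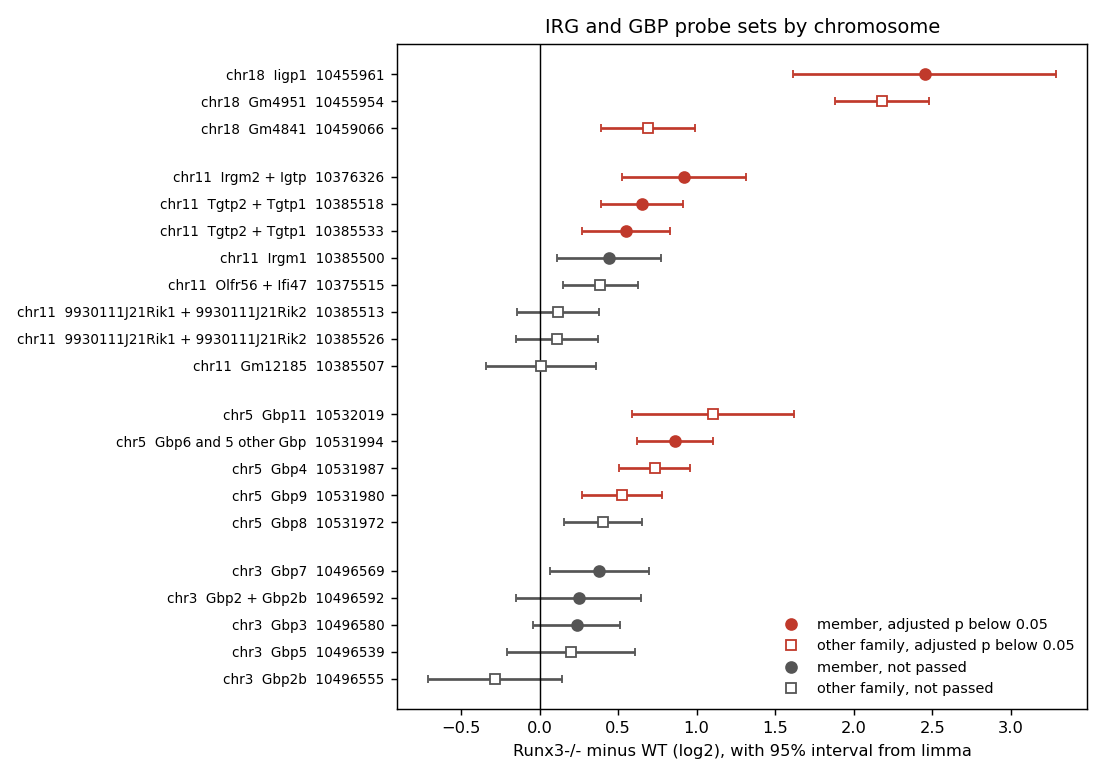
Difference Runx3-/- minus WT (log2, x axis) with its 95% interval for the tested IRG and GBP probe sets, grouped by chromosome (y axis), with members as filled circles and other family genes as open squares, and red where the adjusted p was below 0.05. All 3 probe sets on chromosome 18 and 4 of 5 on chromosome 5 were past the threshold, and 0 of 5 on chromosome 3.

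The wider family of interferon-inducible GTPases, with the large Gvin and the dynamin-like Mx genes included, gave 20 further probe sets, of which 19 were tested. In these 7 rose, 0 fell and 12 did not pass, and the median difference was 0.41. Beside the chromosome 5 and 18 genes named above, the risers were 1 of the Gvin1 probe sets (10566574, with Gm4070), by 0.44 ± 0.10, and Mx1, by 0.64 ± 0.15 (limma adjusted p = 0.0356 and 0.0405). RefSeq lists Mx1 of the mouse reference strain as a transcribed pseudogene, and its WT signals lay near the array median. Ifi47, which encodes Irgd, differed by 0.39 ± 0.10 on a probe set shared with Olfr56 and just missed the threshold (adjusted p = 0.0537). Irgq, an IRG relative known for lacking GTPase activity, differed by -0.058 ± 0.11, and Irgc1, known from testis, did not reach the array median and was not tested. On chromosome 11, with differences from 0.0083 to 0.92, 3 of 8 probe sets rose, all of them members, and 5 did not pass.

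The members also varied together among the WT mice. WT array 2 had the lowest signal of the WT arrays in 9 of 9 member probe sets, where it was the lowest in 31.8% of all tested probe sets. In the wider family it was the lowest in 10 of 19. WT array 3 had the highest in 7 of the 9, for which no share over all probe sets was taken. Among Runx3-/- arrays the lowest was array 2 in 6 of the 9 and array 3 in 3, against 23.9% and 45.4% of all tested probe sets. Averaged over the members, WT array 2 deviated from the WT mean by -0.29 and WT array 3 by 0.24, while Runx3-/- arrays deviated from theirs by -0.072 to 0.10. The SD was smaller among Runx3-/- arrays than among WT arrays in 8 of the 9 member probe sets, which was so in 46.8% of all tested probe sets. Member SDs ran from 0.057 to 0.22 in Runx3-/- arrays and from 0.15 to 0.84 in WT arrays. Gbp7 was the exception, with 0.22 in Runx3-/- and 0.15 in WT arrays. Without WT replicate 2, 4 of the 9 probe sets stayed past the threshold, and without Runx3-/- replicate 3, 2 did, those of Iigp1 and Gbp6.

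**Figure D3:**
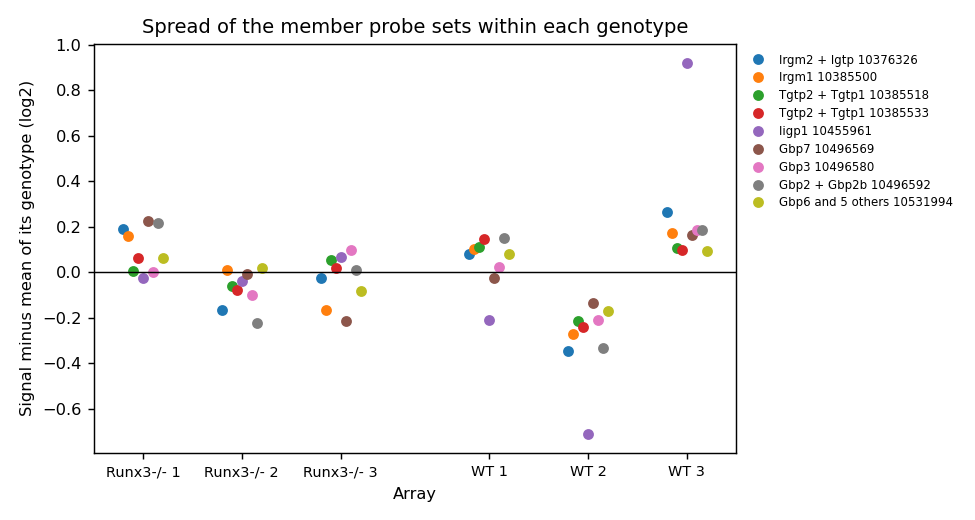
Deviation of each member probe set (colours) from the mean of its genotype (log2, y axis) in each of the 6 arrays (x axis, Runx3-/- left, WT right). All 9 points of WT array 2 lie below 0 and all 9 of WT array 3 above it, and Iigp1 spreads most, from -0.71 to 0.92.

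Some genes outside the family had a like profile over the 6 arrays, measured by Pearson's r. The 5 probe sets outside the family closest to the mean profile of the members, in which Iigp1 with its large range weighs most, were those of AU022252 with P3h1 (r = 0.992), Irf9 (0.989), the costimulatory receptor gene Cd28 (0.988), Gimap4 (0.988) and the tetraspanin gene Cd9 (0.985), and 2.03% of all tested probe sets had an r of 0.9 or more. These are descriptions over 6 arrays that fall into 2 genotypes, so that the difference between genotypes enters every r.

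Of the genes that stand above the GTPases in the interferon pathway, the receptors and their kinases did not pass, whereas several transcription factors did. On genes with a single symbol, 4.98% of 9925 were called higher and 5.35% lower. Among interferons, receptors and kinases, 0 of 9 tested genes passed. Ifngr1, the ligand-binding chain of the interferon gamma receptor, differed by -0.30 ± 0.11, Il10rb, a chain of the interferon lambda and IL-10 receptors, by -0.40 ± 0.12 (limma adjusted p = 0.0714), and Ifnar1, a chain of the type I receptor, by 0.49 ± 0.13, just above the threshold (limma adjusted p = 0.0506). Ifng itself read 3.59, 3.15 and 3.39 in Runx3-/- arrays and 3.03, 3.02 and 2.99 in WT arrays, below the array median in all but Runx3-/- array 1, and its difference was 0.36 ± 0.12 (adjusted p = 0.1).

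Among interferon transcription factors, 5 of 10 tested genes rose and 1 fell. Irf7, the amplifier of type I responses, rose by 1.01 ± 0.12 and read 6.81, 7.19 and 6.87 in Runx3-/- arrays against 5.99, 5.90 and 5.96 in WT arrays. Stat2 and Irf9, which join in the factor that binds the ISRE, rose by 0.62 ± 0.10 and 0.49 ± 0.09, and Irf1, which binds the same element, by 0.42 ± 0.10 (limma adjusted p = 0.0113, 0.0192 and 0.0429). A dimmer Irf1 probe set (10385870) differed by 0.35 ± 0.14 and did not pass (limma adjusted p = 0.155). Nlrc5, the transactivator of MHC class I genes, rose on all 19 of its probe sets, by 0.63 to 1.09. Ciita, the transactivator of MHC class II genes in antigen-presenting cells, fell by 1.30 ± 0.26 (adjusted p = 0.0226). Of the feedback inhibitors, 2 of 8 rose, Usp18 by 2.62 ± 0.20 and Socs3 by 1.04 ± 0.15, and Ptpn6, which encodes the phosphatase SHP-1, fell by 0.42 ± 0.08. A dimmer Socs3 probe set (10383010) differed by 0.36 ± 0.10 and did not pass (limma adjusted p = 0.0631). Socs1 differed by 0.50 and did not pass either (adjusted p = 0.0553).

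Other targets of interferons were mixed. Of 21 type I targets, 10 rose and 1 fell, with a median difference of 0.45. The rises included the viral RNA binder Ifit2 (1.10 ± 0.11), the nucleic acid sensor Zbp1 (1.07 ± 0.12) and Ifi27l2a (1.88 ± 0.32). Oasl2, Ifit3, Rtp4, Xaf1, Dhx58, Samhd1 and Parp14 rose by 0.41 to 0.81, and Rsad2, which encodes viperin, fell by 0.92 ± 0.23 (limma adjusted p = 0.0453). Of 14 interferon gamma targets, 2 rose and 1 fell, with a median of 0.11: the peptide transporter genes Tap1 and Tap2 rose by 0.78 ± 0.10 and 0.41 ± 0.08, and the chemokine gene Cxcl9 fell by 1.76 ± 0.42. IRG and GBP proteins need the autophagy conjugation machinery to reach vacuoles, and of 15 such partners 1 rose, the cytosolic antibody receptor Trim21 (0.47 ± 0.12), and 1 fell, Gabarapl1 (-0.82 ± 0.16), around a median of -0.082. Gabarapl1 reached the array median in WT arrays only. The medians of the lists were not tested against each other.

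**Figure D4:**
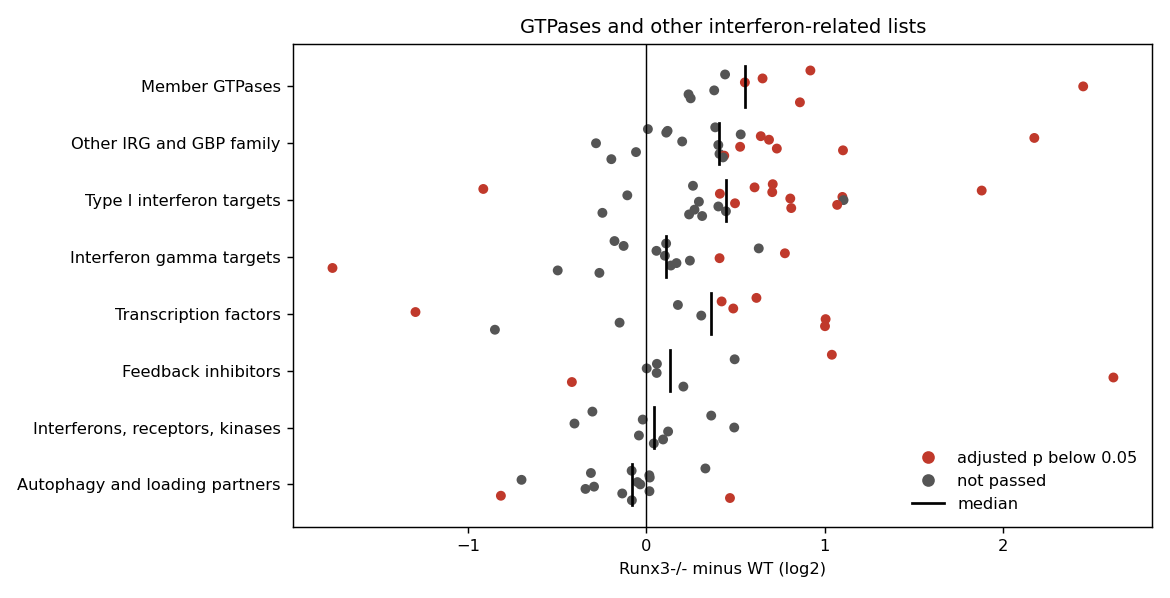
Difference Runx3-/- minus WT (log2, x axis) for the tested members, the other family genes and 6 interferon and autophagy lists (y axis), 1 point for each gene or GTPase probe set, red where the adjusted p was below 0.05, with a bar at each list's median. The member median was 0.55, that of type I targets 0.45, that of interferon gamma targets 0.11 and that of autophagy partners -0.082.

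Markers of other cell types also differed between the genotypes, which differed in the sort as well, and macrophages in particular are known to make IRG and GBP proteins. All 14 macrophage markers tested fell in Runx3-/- cells, with a mean level of 4.14 to 4.84 in Runx3-/- arrays and 6.89 to 7.00 in WT arrays, and all 11 B cell markers fell, with 4.10 to 4.32 in Runx3-/- and 6.29 to 7.03 in WT arrays. In Runx3-/- cells Mertk and Lyz1 of the macrophage list and Fcer2a and Ebf1 of the B cell list were below the array median in every array and were tested through their WT signal alone. Of 11 dendritic cell markers 0 passed, with a median difference of -0.60. The macrophage and B cell markers were thus lower in the arrays in which the GTPases were higher. Of 6 erythroid markers 5 fell and 1 rose, 4 of them tested through 1 genotype's signal alone, and of 4 natural killer cell markers 1 fell and 1 rose. Of 6 markers of CD4+ and regulatory T cells 5 rose, the way of the GTPases, and Zbtb7b did not pass (difference 0.023, limma adjusted p = 0.91). Ctla4, Il2ra and Foxp3 stayed below the median in all WT arrays and so were tested only through their Runx3-/- signal. The list had a mean level of 5.74 to 6.00 in Runx3-/- arrays and 3.81 to 3.82 in WT arrays. Cd4 and Izumo1r, which reached the median in both genotypes, are the other risers, by 2.57 ± 0.11 and 2.87 ± 0.24. The study reports Runx3 binding at Cd4 in CD8-TC and higher Cd4 upon loss of Runx3, so that Cd4 alone does not mark CD4+ cells here. The part of any of these cell types in the GTPase signal was not tested. Of 9 T cell markers 1 rose, Cd247.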

How the data were processed

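The authors hybridised Affymetrix mouse Gene 1.0 ST arrays with RNA of each of the 6 mice and processed them in Partek by RMA (Robust Multichip Average) with GC correction, as their methods and the submitters' notes state. No source used here gives versions or a genome build. The deposited values are log2 signals, and they were used without renormalization. Groups and replicate numbers came from sample titles. GEO's platform annotation gave 21789 of 35399 probe sets 1 gene symbol, 1621 several and 11989 none. Probe sets with a symbol that reached the array median in at least 1 of the 6 arrays were tested, which left 12049. Differences were tested with limma (version 3.58.1, R 4.3.3) by lmFit and eBayes without covariates, after a check on simulated data. P-values rest on the spread among 3 mice a genotype, with variances moderated across all tested probe sets. The number of arrays limits the precision.

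The members and all lists were chosen with earlier results of these data known. All member probe sets are named. Of other lists, genes past the threshold could be named, with up to 4 others of the lowest p. Of marker lists, up to 3 of the brightest could be named, and Cd3e, Cd4, Cd8a and Runx3 as checks. The macrophage and B cell genes named as below the array median were chosen after their values were seen, as were Ctla4, Il2ra, Foxp3, Izumo1r, Zbtb7b, Gm12185, Adar, Gbp2b, Irgq and Irgc1. For lists, a gene was represented by its brightest probe set with 1 symbol. Likeness was Pearson's r with the mean profile of the member probe sets. Chromosomes, neighbours and promoters came from RefSeq tables of GRCm38.p6. For Iigp1 and Gbp6 no promoter was searched. Alternatives were quantile normalization, other filters, 1 probe set per gene, no moderation of variances, array weights, the methods' criterion, a replicate block and leaving out each array.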

Additional observations from a re-analysis of the deposited data

How the results depend on the processing

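The count of 5 members called was also 5 under quantile normalization, array weights, a replicate block and each of the other filters on low values, and 4 under the methods' criterion of 1.5-fold and an unadjusted p under 0.05. It was 1 of 4 on single-symbol probe sets alone, 2 to 5 when 1 array was left out, and 0 with an ordinary linear model (lm without moderation of variances), which gave 5 of 9 an unadjusted p under 0.05. That model called 200 of all 12049 tested probe sets, 1 of 19 in the wider family and 4 of 103 interferon and autophagy probe sets. With limma these counts were 1221, 7 and 43, and 19 of the 43 were probe sets of Nlrc5 alone. With 1 array left out, these counts ran from 591 to 990, from 3 to 6 and from 26 to 43. On single-symbol genes the interferon and autophagy count was 27 of 77. Without Runx3-/- replicate 3, the adjusted p was 0.0631 for Irgm2 with Igtp and 0.0519 and 0.0895 for the Tgtp probe sets; the cause was not tested. No member difference changed sign under any of these alternatives.

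Over all tested probe sets, deviations of same-numbered arrays correlated at 0.19, 0.024 and 0.0038. Such values cannot show whether the replicate numbers pair the samples, and the main fit treated the samples as unpaired. With the replicate block, 5 members, 1152 probe sets in all, 8 of the wider family and 40 interferon and autophagy probe sets were called. All 7 member promoters used (100%) also held the ISRE core in the 250 bases before the start alone, as did 8.18% of all genes.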
